A study of Mus musculus with 2 samples.

Results

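The smooth muscle contractile genes described here are Myh11, Mylk, Myl9, Actg2, Lmod1, Cnn1, Tagln, Des, Synm and Pcp4, 10 of the 32285 genes listed in single-cell counts of the mouse uterus. They were chosen by symbol, and all 10 were found in both libraries. The uteri of females aged 6 months were taken whole, minced, digested with collagenase and DNase I, and profiled by droplet sequencing of transcript 3′ ends. The control group was Prickle1 f/f, with the planar cell polarity gene Prickle1 flanked by loxP sites and no Cre. The conditional knockout group (cKO) was Prickle1 f/f Ltf-cre: it shared the floxed alleles and added a Cre driven by Ltf, a gene transcribed in uterine epithelium, so smooth muscle is not the cell type at which the deletion was aimed. Each group was a pool of 3 mice sequenced as 1 library. A separate genotype entry calls both samples C57BL/6J wild-type, which differs from the titles used for the groups. Effects of genotype, of the mice and of tissue digestion or library making cannot be told apart, no difference has a replicate check, and no p-value is given.

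Smooth muscle shortens when myosin heads pull on actin filaments. Calcium bound to calmodulin activates myosin light chain kinase, the kinase phosphorylates the regulatory light chain, and the phosphorylated myosin cycles on actin. Calponin, transgelin, leiomodin and the desmin-type intermediate filaments hold, tune or build the filaments. In the uterus these proteins mark the myometrium, the muscle wall that contracts at birth, and many of their genes are driven by serum response factor (SRF) and its co-activator myocardin through a short promoter element, the CArG box.

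Upstream sequences of 3 genes are shown because the results turn on them: Pcp4 and Myl9 were among the 3 members with the lowest ratios of cKO to control in Acta2-high cells, and Lmod1 was the member with the highest. The sequences are from RefSeq on GRCm38.p6, whose table held 7 of the 10 members (Des, Lmod1, Myl9, Synm, Cnn1, Mylk and Pcp4). They are the plus-strand bases just before the first transcribed base of GENCODE M21. Capitals mark a CArG box with at most 1 mismatch, searched over 250 bases upstream; the motif is its own reverse complement in form, so both strands are covered.
Myl9 (chr2:156775214-156775419, plus strand): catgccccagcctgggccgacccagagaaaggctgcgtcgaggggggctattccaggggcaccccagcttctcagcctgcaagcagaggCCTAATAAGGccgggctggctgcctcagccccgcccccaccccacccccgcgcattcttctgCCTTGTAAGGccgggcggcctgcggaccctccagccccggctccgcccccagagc
Lmod1 (chr1:135324563-135324806, plus strand): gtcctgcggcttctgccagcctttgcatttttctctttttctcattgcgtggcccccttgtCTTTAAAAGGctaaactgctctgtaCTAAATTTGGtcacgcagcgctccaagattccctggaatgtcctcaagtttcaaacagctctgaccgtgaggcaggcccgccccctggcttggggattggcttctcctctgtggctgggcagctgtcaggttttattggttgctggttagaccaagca
Pcp4 (chr16:96467356-96467605, plus strand): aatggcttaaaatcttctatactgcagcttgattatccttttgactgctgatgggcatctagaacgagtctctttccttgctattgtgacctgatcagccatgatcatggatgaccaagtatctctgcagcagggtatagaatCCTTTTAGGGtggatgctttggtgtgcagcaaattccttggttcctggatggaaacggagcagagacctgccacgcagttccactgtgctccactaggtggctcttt
Myl9 held 2 matches, starting 161 and 99 bases before the RefSeq start, and the farther was exact. Lmod1 held 2 matches at 189 and 164 bases, and Pcp4 held 1 at 107 bases, each with a mismatch. An exact box was present in 1 of the 7 promoters, against 482 of 32851 (1.47%) of all promoters of that length. With 1 mismatch allowed, 4 of the 7 had a match (Synm being the other gene), against 18.6% of all. Des, Cnn1 and Mylk had no match in their 250 bases before the RefSeq start, which for Mylk lies inside the gene as GENCODE draws it. A match describes the letters and is not a measured binding site. Genes with lower and with higher levels in cKO both carried matches.

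Cells were barcodes with at least 500 genes and at most 20% mitochondrial counts, 3653 in control and 4950 in cKO, with medians of 4650 and 5944 unique molecular identifiers (UMIs). Smooth muscle was sought by its actin: Acta2-high cells had at least 3 UMIs of Acta2 (smooth muscle alpha-actin) and none of Ptprc. There were 354 of them in control, 9.69% of cells (95% interval 8.75 to 10.7), and 763 in cKO, 15.4% (14.4 to 16.5). They were compared with Pdgfra cells (stromal; 456 and 1105), Epcam cells (epithelial; 693 and 48) and Ptprc cells (immune; 554 and 1338), each with at least 2 UMIs of its own marker, none of the others and fewer than 3 of Acta2. Cell-free RNA was read from barcodes with 1 to 100 UMIs. The libraries shared 5 cell barcodes, and none was Acta2-high in both. Levels are CPM, the summed UMIs of a gene scaled to the summed UMIs of its class, and all intervals are 95% intervals that cover counting error only. The targeted gene Prickle1 was not lower in the library labelled cKO. It had 12 UMIs in Epcam cells of each library, 0.778 CPM (0.402 to 1.36) in control and 7.26 CPM (3.75 to 12.7) in cKO. In Pdgfra cells it was 3.66 and 9.20 CPM, from 25 and 184 UMIs, and in Ptprc cells 1.63 and 6.24 CPM. Prickle1 in Acta2-high cells was 4.14 CPM in control and 8.17 CPM in cKO, from 11 and 63 UMIs. Counts of 3′ ends need not reveal a deleted inner exon, and whether that holds for this allele was not tested. Prickle1 therefore does not check the labels, and control and cKO below mean the libraries so labelled.

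The Acta2 gate was not pure smooth muscle. Of the Acta2-high cells, 277 in control (78.2%) and 560 in cKO (73.4%) had no Pdgfra or Epcam UMI. These cells were shallow, with medians of 1530 and 1531 UMIs, and held 25.3% and 21.8% of the UMIs of the gate but 85.4% and 75.1% of the UMIs of the 10 contractile genes. Another 48 and 177 cells carried Pdgfra, at medians of 18137 and 19683 UMIs, and held 33.3% and 55.4% of the UMIs of the gate. The 29 and 26 cells with Epcam held 41.3% and 22.8%. A sum over the gate is therefore mostly made of deep cells in which contractile transcripts were a small share of the UMIs. The 10 genes held 0.16% of the UMIs of the cells with Pdgfra in both libraries. They held 1.85% in control and 1.35% in cKO in the cells without Pdgfra or Epcam. The ratios of the 10 genes are also given for the cells without Pdgfra or Epcam, called marker-free below. The marker-free cells had close median depths in both libraries, but 1 cKO cell held 8.80% of their UMIs, with 236 UMIs of the endothelial cadherin Cdh5 and 0 of Actg2 and Pcp4. In bulk sums of this kind fewer contractile cells and less RNA per cell cannot be told apart.

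Contractile transcripts were concentrated in Acta2-high cells in both libraries. Genes were counted only with at least 50 UMIs in the larger sum, which 8 of the 10 reached in control (Lmod1 and Synm did not) and all 10 in cKO. Against Pdgfra cells, 7 of the 8 were at least 2-fold higher in control, beside 10.2% of all genes, and 9 of the 10 in cKO, beside 8.5%. The remaining gene in both libraries was Des. Against Ptprc cells 8 of 8 and 10 of 10 were past 2-fold, beside 23.2% of all genes in both, and against Epcam cells 8 of 8 and 9 of 10, beside 18.2% and 15.2%. Synm was the exception in cKO, with 12.4 CPM in Acta2-high cells and 9.67 CPM, from 16 UMIs, in Epcam cells.

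**Figure D1:**
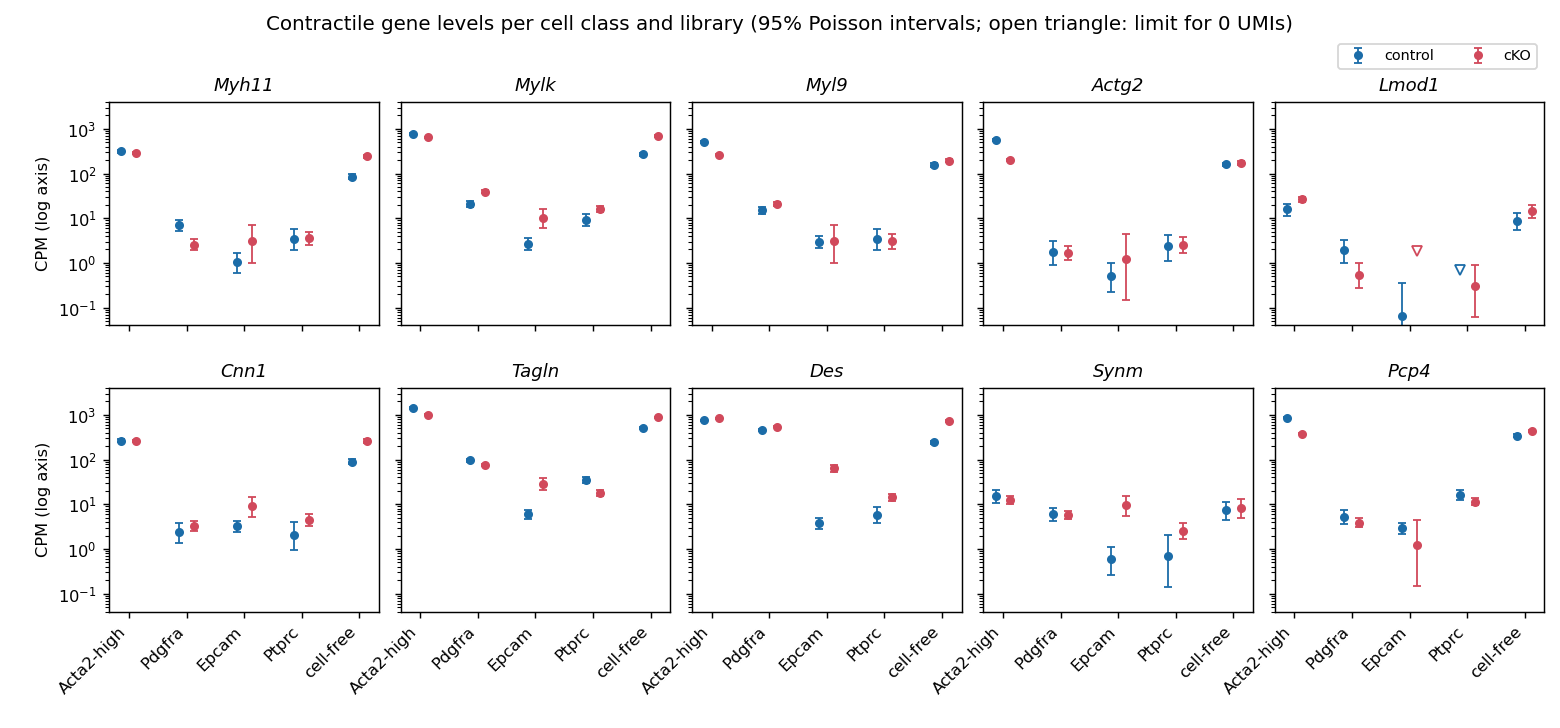
Levels of each contractile gene (CPM, log axis) in the 4 cell classes and in cell-free barcodes, with control in blue and cKO in red; bars are 95% Poisson intervals and open triangles the limit for 0 UMIs (3 counts). Of the 4 cell classes each gene is highest in Acta2-high cells, by little for Synm in cKO (12.4 against 9.67 CPM in Epcam cells), and Des is also high in Pdgfra cells, with 463 and 547 CPM.

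Actg2 (ENSMUSG00000059430; chr6:83512905-83536265, minus strand), the gamma-actin of visceral smooth muscle, had the widest ratio of Acta2-high to Pdgfra cells of the 10 genes in each library. It had 1462 UMIs and 550 CPM in control Acta2-high cells and 12 UMIs and 1.76 CPM in Pdgfra cells, a 313-fold difference (179 to 607). In cKO the values were 198 and 1.70 CPM, a 116-fold difference (83.0 to 169). At full depth 10 of 456 control (2.19%) and 22 of 1105 cKO Pdgfra cells (1.99%) had an Actg2 UMI, beside 1.62% and 1.42% of the shallower Ptprc cells (median 6450 and 5454.5 UMIs, against 14006.5 and 16338). After each cell was thinned to 1000 UMIs none of 452 and 1102 Pdgfra cells had one, which at that depth alone allows shares of up to 0.813% and 0.334%. Its 3′ end shared 10 of 1147 words of 31 bases with Actc1 and none with Acta2 or the other actins tested.

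Des (ENSMUSG00000026208; chr1:75360329-75368579, plus strand), the muscle intermediate filament desmin, was the member with the highest level in Pdgfra cells. Pdgfra cells had 463 CPM of Des in control (447 to 479) and 547 CPM in cKO (537 to 558). That was 1.88 times the cell-free level in control but 0.738 times it in cKO, where cell-free barcodes had 741 CPM. Acta2-high cells had 751 and 832 CPM, only 1.62-fold (1.53 to 1.71) and 1.52-fold (1.47 to 1.57) more. After thinning, 29.6% of control and 32.4% of cKO Pdgfra cells had a Des UMI, against 0.730% and 1.28% of Ptprc cells thinned to the same depth. The part of free RNA in these Pdgfra values was not tested. Des made up 74.7% and 78.0% of the contractile UMIs of Pdgfra cells. In marker-free Acta2-high cells it had 2095 and 2300 CPM, 4.52-fold and 4.20-fold above Pdgfra cells.

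Next in level in Pdgfra cells was Tagln (ENSMUSG00000032085; chr9:45929619-45936058, minus strand), which encodes the actin-binding protein transgelin. It stood at 96.1 CPM in control and 76.6 CPM in cKO Pdgfra cells, 0.189 and 0.0869 times the cell-free level. The thinned share of Pdgfra cells with Tagln was 7.52% and 6.35%, beside 2.55% and 1.81% of Ptprc cells. Synm (ENSMUSG00000030554; chr7:67730160-67759742, minus strand), which encodes synemin, a partner of desmin, had 6.01 and 5.80 CPM in Pdgfra cells, from 41 and 116 UMIs. That was 2.51-fold and 2.14-fold below Acta2-high cells, and the cell-free level was 7.37 and 8.31 CPM. The other 7 members lay between 0.0110 (Actg2) and 0.223 (Lmod1) times the cell-free level in control Pdgfra cells, and between 0.00889 (Pcp4) and 0.106 (Myl9) times it in cKO.

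Free contractile RNA was abundant. The 10 genes summed to 1875 CPM in control and 3630 CPM in cKO cell-free barcodes, against 5481 and 3920 CPM in Acta2-high cells. In control, the 8 genes with at least 50 UMIs were all at least 2-fold above the cell-free level in Acta2-high cells, up to 3.69-fold (Myh11), beside 18.2% of all genes. With at least 1000 genes per cell, and no UMI minimum, only 2 of the 10 were. In cKO none of the 10 was, the multiples running from 0.864 (Pcp4) to 1.85 (Lmod1), beside 9.24% of all genes. The marker-free cells were above the cell-free level for all 10 genes in both libraries, by 5.04-fold to 12.9-fold in control and by 3.10-fold to 6.46-fold in cKO, and the genes with at least 50 UMIs that were past 2-fold were 8 of 8 and 9 of 9, beside 23.1% and 8.69% of all genes.

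Single cells carried many of the genes together. In marker-free cells thinned to 1000 UMIs the median cell had 7 of the 10 genes in control (233 cells) and 6 in cKO (470 cells). At least 5 were found in 80.7% (75.02 to 85.6) and 78.5% (74.5 to 82.1) of them. Thinned Acta2-high cells with Pdgfra had a median of 1 gene in both libraries, and 8.51% and 2.84% of them had 5 or more. At full depth these deeper cells had medians of 5 genes in control and 4 in cKO, beside 7 in marker-free cells of both libraries. Among thinned Pdgfra cells without Acta2-high status, 0 of 452 and 0 of 1102 reached 5, and among thinned Ptprc cells 0 of 548 and 1 of 1328 did. Within the cells with both Acta2 and Pdgfra a few cells held much of the signal: 1 cell held 37.7% of their Myh11 UMIs in control, and 1 held 49.8% in cKO. Des in the cells with both markers, 551 and 576 CPM, was close to its level in Pdgfra cells, while Actg2 was 67.7 and 41.2 CPM.

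**Figure D2:**
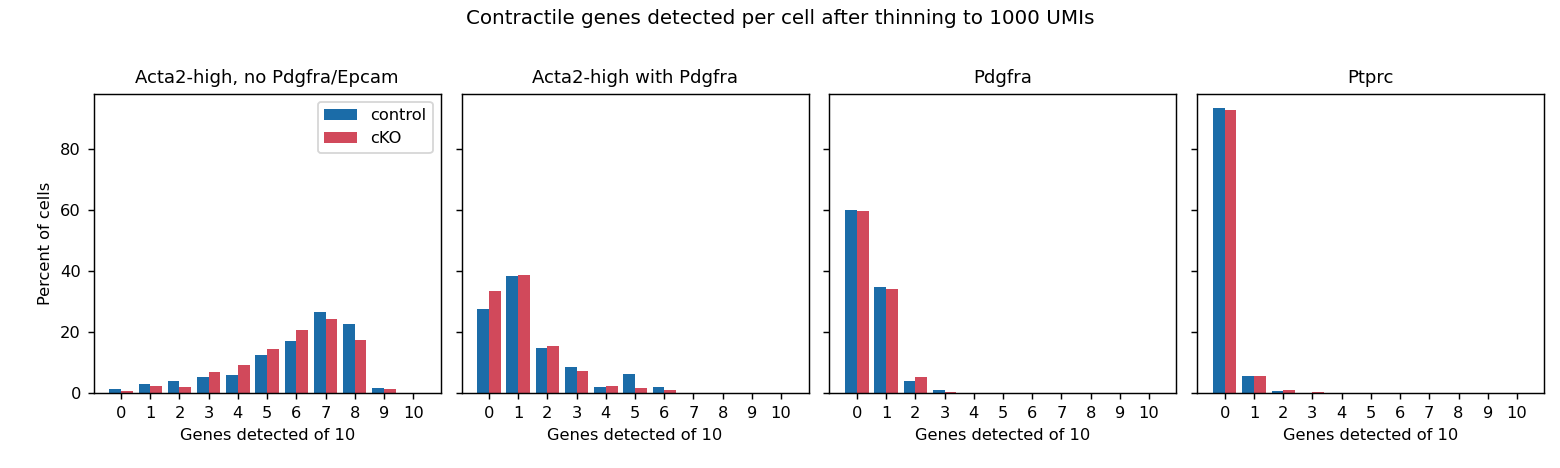
Number of the 10 contractile genes found per cell (horizontal) and percent of cells (vertical) after thinning to 1000 UMIs, for 4 cell groups, with control in blue and cKO in red. Marker-free Acta2-high cells peak at 7 genes in both libraries, whereas the other 3 groups peak at 0 or 1.

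In marker-free cells the contractile level rose with the number of Acta2 UMIs on both sides of the gate. The summed level of the 10 genes was 352 CPM in control and 503 CPM in cKO at 0 Acta2 UMIs, and 4903 and 5791 CPM at 2. At 3 UMIs, just inside the gate, it was 7955 and 9387 CPM, and at 10 to 29 UMIs it was 23490 and 17753 CPM. The cell-free sums were 1875 and 3630 CPM, and the part of free RNA in cells just outside the gate was not tested. Over all cells without Ptprc the cells with 2 and with 3 Acta2 UMIs had 1175 and 1178 CPM in control and 1274 and 2101 CPM in cKO. In this wider set control reached 10738 CPM at 10 to 29 and 18985 CPM at 30 to 99 UMIs, while cKO had 5263 and 5572 CPM there and 3431 CPM in the 6 cells with 100 or more. Above 3 UMIs control exceeded cKO in every filled bin that both libraries had, in both sets of cells.

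**Figure D3:**
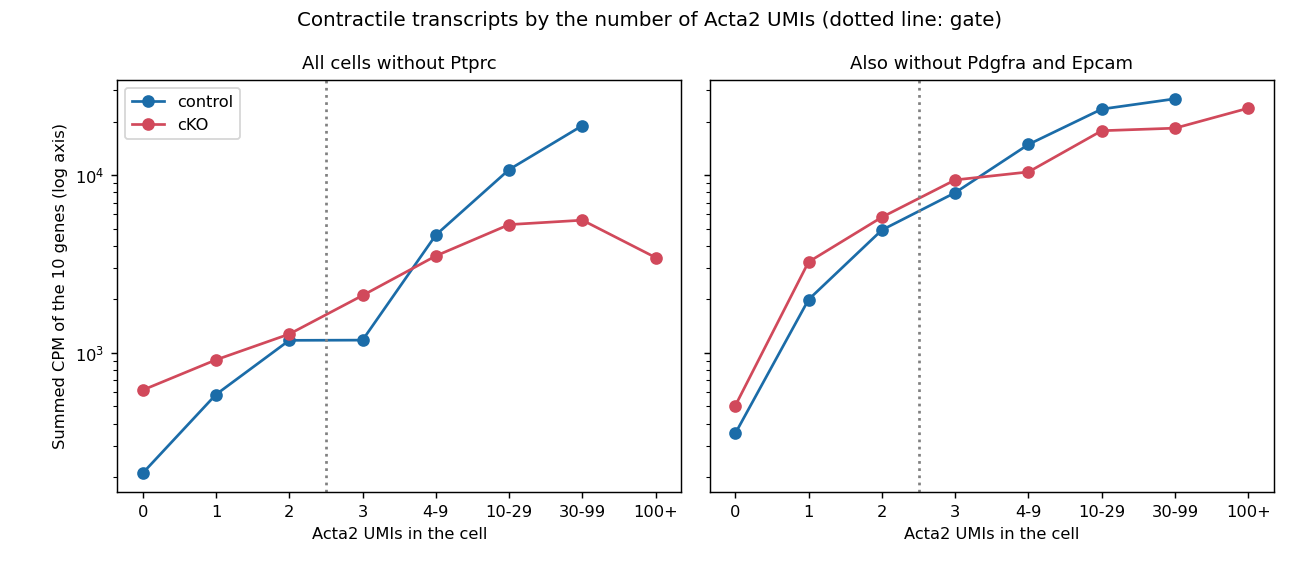
Summed level of the 10 contractile genes (CPM, log axis) by the number of Acta2 UMIs in the cell, for cells without Ptprc (left) and also without Pdgfra and Epcam (right); the dotted line is the gate at 3 UMIs. The level climbs on the right from 352 CPM in control and 503 CPM in cKO to 23490 and 17753 CPM at 10 to 29 UMIs, while on the left the cKO level at 100 or more UMIs (3431 CPM) is below that at 10 to 29.

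The comparison of cKO with control asked whether the contractile genes differed between the libraries so labelled. In Acta2-high cells 2 of the 10 genes were at least 2-fold lower in cKO, Actg2 and Pcp4, beside 4.21% of all genes. None was 2-fold higher, beside 6.55% of all genes. The median log2 ratio of the 10 genes was -0.26, and that of all genes with at least 50 UMIs was 0.16. In marker-free cells Actg2 and Pcp4 were again past 2-fold, beside 1.44% of all genes, and none was 2-fold higher, beside 7.18%. Without the deepest marker-free cell of each library, an alternative added after the values were seen, Actg2 was at -1.26 and Pcp4 at -0.99, so that Pcp4 was no longer past 2-fold. In Acta2-high cells Pcp4 was also short of 2-fold after thinning (-0.96), as mean per-cell CPM (-0.99) and with at most 5000 UMIs (-0.95). As a share of the UMIs of the 10 genes Pcp4 was at -0.72. The genes did not move as a block: the ratios spanned -1.47 (Actg2) to 0.76 (Lmod1).

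**Figure D4:**
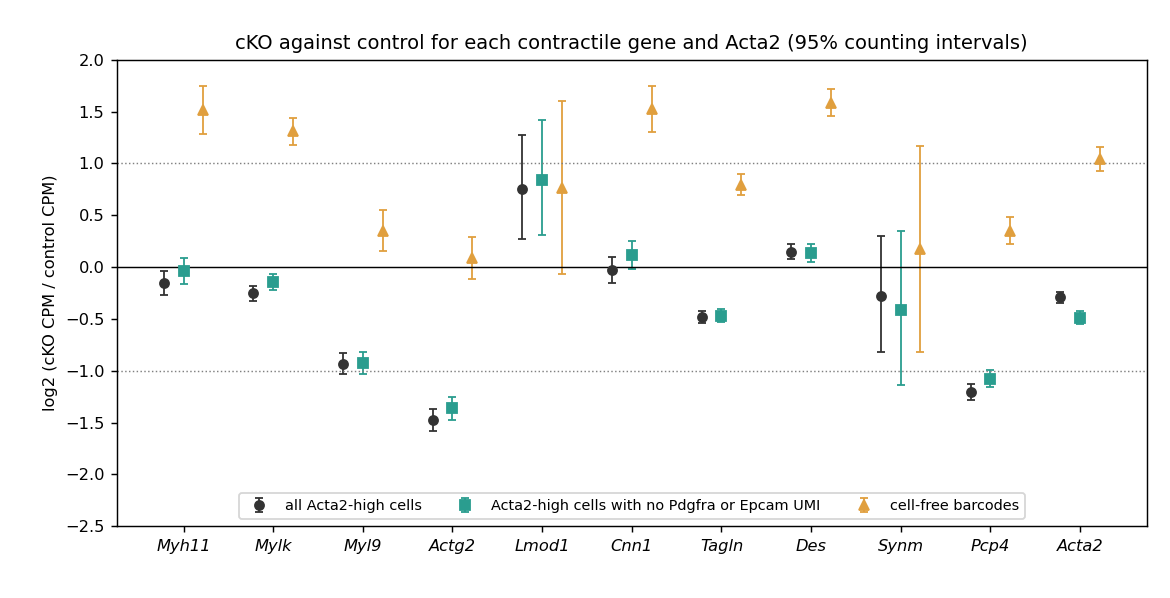
Log2 ratio of cKO to control CPM for each contractile gene and Acta2 in all Acta2-high cells (circles), marker-free cells (squares) and cell-free barcodes (triangles); bars are 95% counting intervals and dotted lines mark 2-fold. Actg2 and Pcp4 lie below -1 in both cell sets, while Des, Cnn1, Myh11 and Mylk lie near 0 in cells and above 1 in cell-free barcodes (Mylk at 0.85 there with TMM scaling).

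The filament actin Actg2 differed most. It was 550 CPM in control and 198 CPM in cKO Acta2-high cells, a log2 ratio of -1.47 (-1.58 to -1.37). Marker-free cells had 2004 CPM (1898 to 2114) and 781 CPM (739 to 824), a ratio of -1.36. The intervals of the libraries did not overlap. Per cell, the median Actg2 level of marker-free cells was 21.8 per 10000 UMIs in control and 8.03 in cKO, and the thinned share of cells with a UMI was 74.7% (68.6 to 80.1) and 54.3% (49.6 to 58.8). No marker-free cell held more than 3.81% of the Actg2 UMIs of its library's class. Acta2 itself was used to choose the cells, so its plotted ratio is only a description. Lmod1 (ENSMUSG00000048096; chr1:135324807-135368065, plus strand), the actin filament nucleator leiomodin, whose upstream sequence is shown above, stood on the other side: 15.8 and 26.7 CPM, from 42 and 206 UMIs, a log2 ratio of 0.76 (0.27 to 1.27). In marker-free cells it was 52.0 and 93.3 CPM.

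Among the myosin genes the light chain differed from the heavy chain and the kinase. Myl9 (ENSMUSG00000067818; chr2:156775420-156781658, plus strand), the regulatory light chain, was 507 CPM in control against 266 CPM in cKO, a log2 ratio of -0.93 (-1.03 to -0.83). Marker-free cells had 1790 and 943 CPM of Myl9, again -0.93, and thinned shares of 76.0% and 63.8%. Myh11 (ENSMUSG00000018830; chr16:14194535-14291372, minus strand), the smooth muscle myosin heavy chain, was 315 CPM (294 to 337) and 283 CPM (272 to 296), a log2 ratio of -0.15. Its marker-free levels, 1101 and 1073 CPM, had overlapping intervals, and more cKO than control marker-free cells had a Myh11 UMI after thinning, 67.4% (63.0 to 71.7) against 56.7% (50.02 to 63.1). Mylk (ENSMUSG00000022836; chr16:34745210-35002420, plus strand), the kinase that phosphorylates the light chain, was 763 and 641 CPM, a log2 ratio of -0.25. In marker-free cells it was 2652 and 2401 CPM, and the median cell had 24.6 and 29.3 Mylk UMIs per 10000.

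Pcp4 (ENSMUSG00000090223; chr16:96467606-96525793, plus strand) encodes a small protein that binds calmodulin, the calcium sensor that activates Mylk. It was 874 CPM (838 to 910) in control and 379 CPM (366 to 393) in cKO Acta2-high cells, a log2 ratio of -1.20 (-1.28 to -1.12). Marker-free cells had 3103 and 1471 CPM of Pcp4, a log2 ratio of -1.08 (-0.99 without the deepest cell of each library), and the per-cell medians were 29.9 and 15.5 per 10000 UMIs. The thinned share of marker-free cells with Pcp4 was 85.4% and 72.1%. Pcp4, like Actg2 and Myl9, was thus lower in level and in share of cells.

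The filament regulators and intermediate filaments lay closer together. Cnn1 (ENSMUSG00000001349; chr9:22099216-22109630, plus strand), calponin, was 267 CPM in control and 262 CPM in cKO Acta2-high cells, a log2 ratio of -0.02 (-0.15 to 0.10), and 927 and 1003 CPM in marker-free cells. Tagln was 1424 and 1019 CPM, a log2 ratio of -0.48 (-0.54 to -0.43), and 4726 and 3413 CPM in marker-free cells, with thinned shares of 91.4% and 88.9%. Des was slightly higher in cKO, with a log2 ratio of 0.15 (0.08 to 0.22) in Acta2-high and 0.14 (0.05 to 0.22) in marker-free cells. Synm had 40 and 96 UMIs, and its log2 ratio of -0.27 (-0.82 to 0.30) was not distinguishable from 0 at this depth.

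Over 14 other ways of gating, filtering or scaling, Actg2, Pcp4 and Myl9 were below 0 and Lmod1 was above 0 in every case. Actg2 ran from -2.19 to -0.99, Pcp4 from -1.99 to -0.72, Myl9 from -1.75 to -0.45 and Lmod1 from 0.25 to 1.35. Counting the reported setting, Actg2 was 2-fold lower in 14 of 15, Pcp4 in 10 and Myl9 in 3, and Lmod1 was 2-fold higher in 4. Each of the other 6 genes took both signs. Des ran from -0.64 to 0.63, Cnn1 from -0.91 to 0.46, Myh11 from -0.80 to 0.33, Mylk from -1.10 to 0.23 and Synm from -1.13 to 0.21. Tagln was below 0 in 14 of 15 settings, down to -1.27, and at 0.00057 in the other. Tagln, Mylk and Synm were each 2-fold lower in 1 setting. The highest value of each of the 6 genes over the settings came from scaling to the UMIs of the 10 genes, and the lowest from an Acta2 minimum of 10 UMIs, or for Synm from thinning. The ratios were also read by the other marker a cell carried. In Acta2-high cells with Pdgfra, Actg2 was at -0.72 (-1.15 to -0.27), Pcp4 at -0.26 (-0.57 to 0.07), Myl9 at 0.05 (-0.29 to 0.40) and Lmod1, from 3 and 47 UMIs, at 1.70. In the 29 and 26 cells with Epcam, Actg2 was at -1.16, Pcp4 at -2.46, Myl9 at -1.27 and Tagln at -1.10, and Lmod1 was at -1.68 from 4 and 2 UMIs.

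Free RNA was compared in the same way. In cell-free barcodes 4 of the 10 genes were at least 2-fold higher in cKO, Des (1.59), Cnn1 (1.53), Myh11 (1.51) and Mylk (1.31), beside 20.8% of all genes, and none was 2-fold lower, beside 8.34%. Actg2 had the lowest cell-free ratio of the 10, 0.09 (-0.12 to 0.29), with 159 and 169 CPM. Synm was at 0.17, and Pcp4 and Myl9 were at 0.35 each. The median of all genes in cell-free barcodes was 0.55, and TMM scaling, a trimmed mean over genes added as an alternative after the values were seen, lowers each ratio by 0.47. So scaled, Des, Cnn1 and Myh11 stayed past 2-fold, Mylk was at 0.85, and Actg2 (-0.38), Synm (-0.29), Pcp4 (-0.11) and Myl9 (-0.11) were below 0.

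Each gene was therefore also expressed as a share of the UMIs of the 10 genes, a measure chosen after the values had been seen. In marker-free cells Actg2 made up 10.8% of them in control and 5.78% in cKO, Pcp4 16.8% and 10.9%, and Myl9 9.68% and 6.98%. In cell-free barcodes the shares were 8.50% and 4.67% for Actg2, 18.3% and 12.1% for Pcp4, and 8.15% and 5.38% for Myl9. Des made up more in cKO in both, 11.3% and 17.0% in marker-free cells and 13.2% and 20.4% in cell-free barcodes. Mylk, Myh11 and Cnn1 also had larger shares in cKO in both compartments. Tagln held 25.6% and 25.3% in marker-free cells and 27.1% and 24.3% in cell-free barcodes. Since a larger share of some genes lowers that of others, these values show the mix and not the level.

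Ratios between pairs of genes do not depend on the total of a class, and 3 pairs were built from genes already seen to differ. In marker-free cells there were 1.82 Actg2 UMIs per Myh11 UMI in control (1.66 to 1.99) and 0.728 in cKO (0.677 to 0.782). In cell-free barcodes the values were 1.87 (1.58 to 2.21) and 0.695 (0.609 to 0.792), so the intervals of cells and free RNA of a library overlapped and those of the libraries did not. Pcp4 UMIs per Mylk UMI were 1.17 (1.10 to 1.25) and 0.613 (0.583 to 0.644) in marker-free cells and 1.26 (1.14 to 1.40) and 0.649 (0.599 to 0.703) in cell-free barcodes. Myl9 UMIs per Mylk UMI were 0.675 (0.627 to 0.727) and 0.393 (0.370 to 0.416) in marker-free cells and 0.561 (0.495 to 0.636) and 0.289 (0.259 to 0.321) in cell-free barcodes. For this pair the cKO intervals of cells and free RNA did not overlap. Cell-free RNA comes from the same 2 libraries and is no replicate of them.

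**Figure D5:**
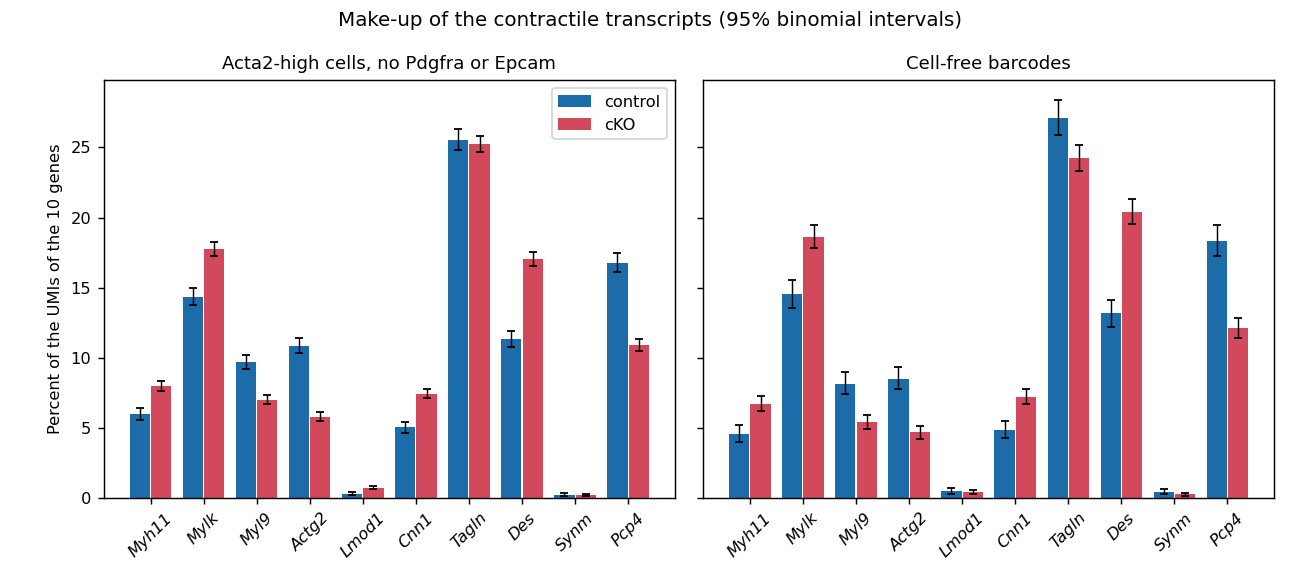
Share of each gene among the UMIs of the 10 contractile genes (percent) in marker-free Acta2-high cells (left) and cell-free barcodes (right), with control in blue and cKO in red; bars are 95% binomial intervals. Actg2, Pcp4 and Myl9 have smaller shares and Des, Mylk, Myh11 and Cnn1 larger shares in cKO in both panels.

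Other genes of the contractile machinery were read in the same Acta2-high sums. Of all genes 6.55% were 2-fold higher and 4.21% were 2-fold lower in cKO. Of 21 filament partners, 20 had at least 50 UMIs, none was 2-fold higher in cKO and 1 was 2-fold lower. That gene was Tpm2, a tropomyosin that lies along the actin filament, with 767 and 383 CPM (log2 ratio -1.0) and 2469 and 1230 CPM in marker-free cells. The median of the 20 genes was -0.03. Cald1, caldesmon, was 595 and 946 CPM in Acta2-high cells and 946 and 1077 CPM in marker-free cells. Of 10 genes that control myosin phosphorylation 1 was 2-fold lower, Ppp1r14a, an inhibitor of myosin phosphatase, with 29.7 and 14.4 CPM. Its marker-free levels were 90.6 and 39.2 CPM, from 61 and 66 UMIs.

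Of 6 genes of the myocardin and SRF axis, all with at least 50 UMIs, 1 was 2-fold lower in cKO Acta2-high cells and none higher: Mrtfa, an SRF co-activator, with 24.5 and 11.4 CPM. The median log2 ratio of the 6 was -0.57 there. In marker-free cells only 3 of the 6 reached 50 UMIs, their median was 0.57, none was lower and 1 was higher, Klf4, a zinc finger repressor of the contractile programme, named after its values were seen, with 267 and 535 CPM. The deepest cKO cell held 488 of its UMIs, and without the deepest cell of each library Klf4 was 273 and 268 CPM. Mrtfa was 28.2 and 11.9 CPM in marker-free cells, from 19 and 20 UMIs. Myocd, myocardin, had 26 and 115 UMIs, 9.78 and 14.9 CPM, a log2 ratio of 0.61 (-0.02 to 1.28), and 1 control cell held 34.6% of its UMIs. In marker-free cells it was 37.1 and 55.3 CPM. Srf was 72.6 and 51.5 CPM, a log2 ratio of -0.50 (-0.75 to -0.24). In marker-free cells Srf had only 26 and 34 UMIs.

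Of the genes of excitation and uterine signalling, those past 2-fold were higher in cKO. Of 14 excitation and calcium genes 9 had at least 50 UMIs, and 2 of these were 2-fold higher: Kcnma1, a calcium-activated potassium channel, with 3.76 and 13.1 CPM, and Ano1, a calcium-activated chloride channel, with 5.27 and 11.1 CPM. Both had few UMIs in control, 10 and 14. In marker-free cells Kcnma1 was 14.9 and 38.6 CPM and Ano1 8.91 and 13.1 CPM. Of 8 uterine hormone and contraction signals 6 had at least 50 UMIs, and 2 of these were 2-fold higher, the endothelin receptor Ednra (9.03 and 39.3 CPM) and the relaxin receptor Rxfp1 (15.8 and 50.3 CPM). Oxtr, the oxytocin receptor, was 187 and 370 CPM, a log2 ratio of 0.98, and Gja1, the gap junction protein connexin 43, was 259 and 416 CPM. In marker-free cells these 2 genes were closer, Oxtr at 306 and 402 CPM and Gja1 at 328 and 357 CPM. Ednra was 16.3 and 31.5 CPM there, from 11 and 53 UMIs, and Rxfp1 46.1 and 110 CPM.

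Markers of other cell types moved with these sums. Summed stromal markers (7 genes) were 5370 CPM in control and 8227 CPM in cKO Acta2-high cells, with 3 of 7 genes 2-fold higher (Col6a3, Dpt and Pdgfra), and 1426 and 1690 CPM in marker-free cells, where only Pdgfra was at 0 in both. Summed epithelial markers (7 genes) were 4832 and 3388 CPM, with 1 gene 2-fold lower (Krt19), and 227 and 33.9 CPM in marker-free cells, with Epcam at 0. Immune markers (7 genes) summed to 124 and 44.3 CPM with Ptprc at 0, and Cd74, the only 1 of the 7 with at least 50 UMIs, was 2-fold lower; the marker-free sums were 132 and 29.7 CPM. Mesothelial markers (5 genes) summed to 98.2 and 151 CPM, with Upk3b and Lrrn4, among 4 with at least 50 UMIs, 2-fold higher; the marker-free sums were 140 and 179 CPM. Their part in the contractile ratios was not tested beyond the marker-free values above.

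The 10 pericyte and vascular smooth muscle markers summed to 128 and 160 CPM in Acta2-high cells, with Higd1b at 0 in control, and to 218 and 285 CPM in marker-free cells. Rgs5 was 3.39 and 8.55 CPM and was past 2-fold with at least 50 UMIs, and Notch3 was 1.13 and 2.72 CPM, from 3 and 21 UMIs. Of 7 blood endothelial markers 6 were 2-fold higher in cKO, beside 6.55% of all genes, with sums of 19.2 and 118 CPM. Cdh5, Plvap and Egfl7 were at 0 in control. Pecam1 was 1.88 and 10.9 CPM. In marker-free cells the 7 summed to 7.43 and 340 CPM, with 5 of 7 at 0 in control. The deepest cKO marker-free cell carried 236 of 243 Cdh5 and 169 of 170 Cldn5 UMIs, and it is also part of the Acta2-high sums. Without the deepest cell of each library the marker-free sums were 7.71 and 60.0 CPM.

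Genes of the response to dissociation also differed between the libraries. Of 17 such genes 6 were 2-fold lower in cKO Acta2-high cells, led by Atf3 (515 and 105 CPM), Dnajb1 (226 and 67.7 CPM) and Btg2 (470 and 164 CPM). In control 1 cell held 42.2% of the Atf3, 47.5% of the Dnajb1 and 31.3% of the Btg2 UMIs. In marker-free cells 3 of the 17 were 2-fold lower and 1 higher, with sums of 9717 and 7531 CPM. Whether the contractile ratios depend on this response was not tested.

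The genes most like the contractile set were found by the correlation of log2(CPM + 1) with the mean of the 10 genes over 10 profiles, the 4 classes and cell-free barcodes in each library, among 11812 genes with at least 200 UMIs. With Acta2, the gene of the gate, left out, they were Rprm (r = 0.974), Popdc2, Hspb7, Psd, Sh3bgr, Klhdc8b, Synpo2 and Cdh2 (r = 0.918). The profiles share libraries and free RNA, so r describes likeness only. Hspb7, a small heat shock protein of muscle, was 63.2 CPM in control and 32.8 CPM in cKO Acta2-high cells, and 6.15 and 2.90 CPM in Pdgfra cells. Synpo2, an actin-associated protein of smooth muscle, was 62.8 and 69.5 CPM in Acta2-high cells and 17.1 and 25.8 CPM in Pdgfra cells. Rprm was 33.9 and 37.2 CPM in Acta2-high cells.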

How the data were processed

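The deposited values were raw counts of UMIs per gene and barcode in unfiltered matrices, which, per the file headers, Cell Ranger 4 wrote. The submitters' processing notes name Cell Ranger 6.1.1 and mm10. The annotation and the settings were not given in the sources used here. Every value column was used. The libraries held 45035801 and 57145553 UMIs.

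Counts were summed per class and library and given as CPM, with exact Poisson intervals, exact conditional binomial intervals for ratios and Clopper-Pearson intervals for shares, all at 95%. A gene was called past 2-fold with at least 50 UMIs in the higher sum. A count of 0 allows up to 3 counts. Cells were thinned to 1000 UMIs for shares; 44 control and 90 cKO marker-free cells were shallower and left out. Unthinned, 85.6% and 69.6% of marker-free cells had an Actg2 UMI. Doublets were kept; an alternative removed the 6% with the highest simulated-doublet score. edgeR 4.0.16 in R 4.3.3 gave TMM factors for another alternative; the rest used Python 3.11.15, numpy 2.4.6 and scipy 1.17.1. On simulated Poisson sums with 200 of 6412 genes changed 4-fold, the Acta2-high comparison called 100% of them and 0% of the others. The simulation held no differences between cells, mice or libraries. It checks the arithmetic of the calls and gives no rate of false calls for these data.

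The genes and lists were chosen with earlier results of these data known. Genes outside the 10 were named by rule: at most 3 per list and direction past 2-fold in Acta2-high cells, 10 genes chosen by name, and the 8 most similar profiles other than Acta2. Klf4 was named outside this rule, after its values were seen. Names and positions are from the files and GENCODE M21 on GRCm38.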

Additional observations from a re-analysis of the deposited data

How the results depend on the processing

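Actg2, Pcp4 and Myl9 kept ratios below 0, and Lmod1 above 0, in Acta2-high cells under all 14 alternatives. Among the 10 genes, those called in cKO against control, Actg2 and Pcp4, thus kept their sign. Outside the 10, the marker-free call of Klf4 was lost without the deepest cell of each library, with 273 CPM in control and 268 CPM in cKO. The counts here have no UMI minimum and no share of all genes beside them, so they describe only how the 10 genes moved with the setting. The number of genes 2-fold lower in cKO, 2 as reported, was 5 with an Acta2 minimum of 10 UMIs, 3 with Acta2 at least 10 per 10000 UMIs, 3 with at least 300 genes (Myl9 being the added gene in both), 1 as a mean of per-cell CPM, 1 in Acta2-high cells with at most 5000 UMIs, 1 in marker-free cells without the deepest cell of each library and 0 as a share of the UMIs of the 10 genes. After thinning the number stayed at 2, with Synm (-1.13) in place of Pcp4 (-0.96). The number 2-fold higher, 0 as reported, was 1 without the highest doublet scores, 1 after thinning, 1 with at most 5000 UMIs and 1 as a share. The median log2 ratio, -0.26 as reported, was -1.0 with the Acta2 minimum of 10 and 0.22 as a share. The number of genes 2-fold above the cell-free level in cKO, 0 as reported, was 2 with the Acta2 minimum of 10, 10 with Acta2 at least 10 per 10000 UMIs, 10 in marker-free cells, 1 without the highest doublet scores, 9 as a mean of per-cell CPM and 9 after thinning; in control, 9 with Synm counted, it was 2 with at least 1000 genes. The log2 ratio of the Acta2-high share of cells, 0.67 as reported, was 0.48 with the Acta2 minimum of 10. Cell-free barcodes with 1 to 50 UMIs had summed levels of 1622 CPM in control and 3295 CPM in cKO, against 1875 and 3630. The causes were not tested. The settings TMM scaling of cell-free RNA, at most 5000 UMIs, share of UMIs and without the deepest cell (over the gate or the marker-free cells) were chosen after seeing the data. No paired analysis was possible because each group was 1 library. Synm, Lmod1, Myocd and Notch3 had too few UMIs for small differences to be detectable, and the Acta2 gate passes cells by depth.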
